A study of Mus musculus with 6 samples.

Results

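The 8 genes described here are the PARP family genes Parp1, Parp9, Parp10, Parp12, Parp14 and Zc3hav1, the Parp9 partner Dtx3l, and Nampt, which supplies the NAD that such enzymes use. They were picked out by gene name, with earlier results of these data known, and all 8 had a row among the 14701 genes of each table. RNA came from IEC 4.1, a mouse line that its label calls intestinal epithelium. The treated group received interferon-gamma, a cytokine made by lymphocytes, at 10 ng/ml for 6 h (replicates 1, 2 and 4). The control group was the same line without interferon-gamma (replicates 2, 3 and 4), n = 3 per group. No other agent or genetic change is named for either group, and separate cultures are not stated, so p-values may measure technical spread.

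PARP enzymes split NAD, release nicotinamide and attach the remaining ADP-ribose to proteins or nucleic acids, either as a chain, as Parp1 does at DNA breaks, or as a single unit, as Parp10, Parp12 and Parp14 do. Many of the single-unit enzymes and their partners are interferon-induced and act against viruses, and some viruses carry a macrodomain enzyme that removes ADP-ribose. Nampt turns the released nicotinamide back into an NAD precursor and is the rate-limiting enzyme of that salvage route.

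The libraries held 17490689 to 18678543 estimated counts, and 11423 genes passed the filter on low counts and were tested with edgeR. Across genes, which are no independent replicates of each other, Spearman's correlation was 0.9971 to 0.9984 within groups and 0.9622 to 0.9654 between them. No gene was at 0 in all 3 controls, so a gene that is silent in controls has no values here. Irf1, a transcription factor that interferon-gamma is known to induce, averaged 1138 CPM (counts scaled to library size) with interferon-gamma and 95.4 CPM in controls. Of 12 epithelial identity markers, 8 had a row, and their summed level was 0.53 to 0.834 CPM with interferon-gamma and 0.791 to 1.07 CPM in controls, none high enough to test. Epcam, Cdx2, Cldn3 and Cldn7 had no row, so these markers go against the epithelial label. The 8 mesenchymal markers with a row summed to 5050 to 5430 CPM with interferon-gamma and 5130 to 5360 CPM in controls, and the leukocyte markers, 5 of 9 with a row, to 20.5 to 22.0 CPM with interferon-gamma and 22.9 to 26.2 CPM in controls. The 2 endothelial markers with a row, of 4, did not exceed a sum of 0.53 CPM in any library. The part of these markers in the results was not tested.

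With interferon-gamma, 7 of the 8 genes rose and Parp1 fell (edgeR, adjusted p under 0.05), where 19.9% of all tested genes rose and 18.1% fell. The rises were of very unequal size. Parp14, Parp9 and Dtx3l rose more than 10-fold, Parp10 and Parp12 more than 4-fold, Nampt 3.6-fold and Zc3hav1 1.59-fold. At least 4-fold rises thus numbered 5 of 8, against 1.99% of all tested genes. On the scaled counts every interferon-gamma library lay above every control library for the 7 that rose, as for 24.7% of all genes, and below for Parp1, as for 23.3%. The median log2 fold change of the 8 was 3.09, against 0.01 over all tested genes. Since the RNA is bulk, a change in the number of cells that express a gene and a change in RNA per cell cannot be told apart.

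**Figure D1:**
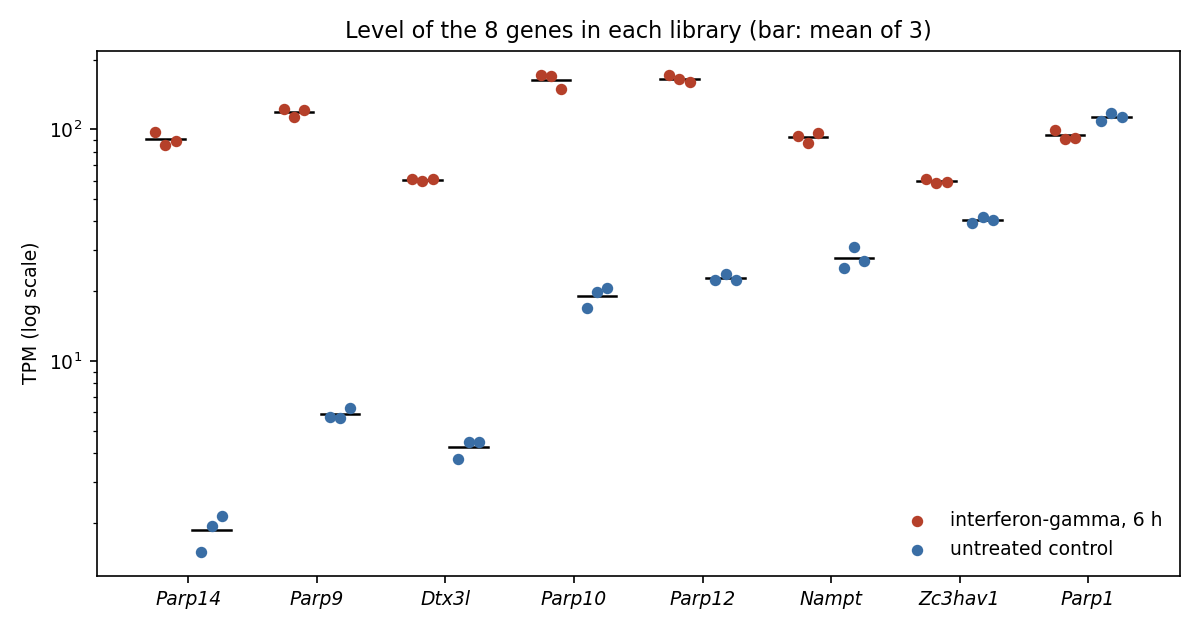
Level of each of the 8 genes in each library in TPM (transcripts scaled to gene length and library, log scale), with interferon-gamma libraries in red left of control libraries in blue and a bar at the mean of 3. Parp14 shows the widest gap, 90.6 against 1.86 TPM, and Parp1 is the gene whose interferon-gamma libraries lie lower, 94.0 against 113 TPM.

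Start-site sequences are shown for Dtx3l and Parp12, to set genes that rose more than 4-fold beside Parp1, which fell. The RefSeq table of GRCm38.p6 held a window, from 250 bases before to 50 bases after the start site, for 5 of the 8 genes (these 3, Zc3hav1 and Nampt); Parp9, Parp10 and Parp14 are not in it. Capitals mark the 50 bases from the start site on. The Dtx3l window (chr16:35938978-35939277, minus strand) lies within the span of the Parp9 gene, the Parp12 window is chr6:39118300-39118599 on the minus strand, and the Parp1 window is chr1:180568641-180568940 on the plus strand.
Dtx3l: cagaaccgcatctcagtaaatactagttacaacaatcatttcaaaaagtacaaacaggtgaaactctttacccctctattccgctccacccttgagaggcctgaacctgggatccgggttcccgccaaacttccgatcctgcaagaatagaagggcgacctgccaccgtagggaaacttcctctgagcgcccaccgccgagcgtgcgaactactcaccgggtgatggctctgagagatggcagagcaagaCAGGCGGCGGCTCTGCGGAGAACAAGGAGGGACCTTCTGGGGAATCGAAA
Parp12: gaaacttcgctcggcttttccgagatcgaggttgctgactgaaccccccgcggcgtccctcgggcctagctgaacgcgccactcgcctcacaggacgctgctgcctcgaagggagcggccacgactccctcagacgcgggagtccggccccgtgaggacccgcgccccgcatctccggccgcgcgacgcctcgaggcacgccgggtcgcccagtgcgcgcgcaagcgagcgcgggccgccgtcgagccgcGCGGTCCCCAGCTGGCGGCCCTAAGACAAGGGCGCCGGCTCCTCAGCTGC
Parp1: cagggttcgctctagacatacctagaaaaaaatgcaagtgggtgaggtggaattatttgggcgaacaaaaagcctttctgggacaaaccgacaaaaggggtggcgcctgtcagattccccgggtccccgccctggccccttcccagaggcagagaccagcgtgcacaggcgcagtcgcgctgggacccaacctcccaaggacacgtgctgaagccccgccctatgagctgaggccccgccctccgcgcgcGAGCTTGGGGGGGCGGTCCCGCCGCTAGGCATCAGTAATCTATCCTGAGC
The letters of the gamma-activated site, TTCNNNGAA, and of the core of the interferon-stimulated response element, GAAANNGAAA, were searched on both strands. Neither was in any of the 5 windows, while 8.3% and 3.44% of all 32851 windows of that length held them. The Zc3hav1 window, 38354554 to 38354853 on the minus strand of chromosome 6, lies inside the gene's span, which ends at 38355352. It therefore does not cover the upstream end of that span. G and C made up 54.3% of the Dtx3l window, 73.7% of the Parp12 window and 62.0% of the Parp1 window, with 17, 46 and 20 CG pairs. These letters say nothing about factors bound elsewhere at the genes.

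Parp14, Parp9 and Dtx3l lie side by side on chromosome 16 and showed the 3 largest rises of the 8. Parp14 (NCBI Gene 547253, GRCm38 chromosome 16, 35831892 to 35871518, minus strand) encodes a single-unit ADP-ribosyltransferase with macrodomains. Its level was 97.0, 85.9 and 88.8 TPM with interferon-gamma, against 1.5, 1.93 and 2.15 TPM in controls. In every control it was the lowest of the PARP family, and no control came near an interferon-gamma library. The counts behind these levels were 7858, 7374 and 7120 with interferon-gamma and 128, 155 and 173 in controls. The log2 fold change was 5.70 ± 0.13 (± SE between replicates, here and below), a 52.1-fold rise with a limma-voom 95% interval of 45.7 to 60.0 (edgeR adjusted p = 4.46e-23). Counted from the highest log2 fold change, Parp14 was number 41 of the 11423 genes tested, which leave out genes silent in controls.

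Parp9 (NCBI Gene 80285, chromosome 16, 35938470 to 35972621, plus strand) encodes a macrodomain protein that works as a complex with Dtx3l. It was at 123, 113 and 121 TPM with interferon-gamma, against 5.74, 5.66 and 6.27 TPM in controls. The groups did not overlap, and each group was tight around its mean of 119 ± 4.99 TPM with interferon-gamma and 5.89 ± 0.332 TPM in controls (SD, n = 3 each). Parp9 rose 20.9-fold (95% interval 18.7 to 23.2), by 4.38 ± 0.046 on the log2 scale (edgeR adjusted p = 1.64e-22).

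Dtx3l (NCBI Gene 209200, chromosome 16, 35926515 to 35939027, minus strand), a ubiquitin ligase of the Deltex family, is the partner of Parp9. It was at 61.1, 59.8 and 61.2 TPM with interferon-gamma, against 3.78, 4.49 and 4.47 TPM in controls. Here too the groups stood apart in every library. Dtx3l rose 15.5-fold (95% interval 13.9 to 17.1), by 3.95 ± 0.054 on the log2 scale (edgeR adjusted p = 8.01e-22). Of the 4 other Deltex genes in the list, 3 were tested and none rose (0 at an unadjusted edgeR p under 0.05, 0 by DESeq2 and 0 by limma-voom). Dtx4 fell to 7.22, 6.69 and 6.88 TPM with interferon-gamma, against 10.5, 11.4 and 11.4 TPM in controls (log2 -0.57, edgeR adjusted p = 4.01e-07). Dtx2 had a log2 fold change of -0.13 (adjusted p = 0.126) and Dtx3 of 0.13 (adjusted p = 0.255), neither past the threshold. Dtx2 was called as a fall with upper-quartile factors, at -0.18 (adjusted p = 0.0303), as well as on total counts, at -0.20 (0.0187). Without interferon-gamma replicate 4, Dtx3 was called as a rise (0.23, adjusted p = 0.0114).

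The 3 genes did not rise in equal proportion. Within each library the TPM ratio of Dtx3l to Parp9 was 0.499, 0.527 and 0.504 with interferon-gamma, against 0.659, 0.793 and 0.713 in controls. The ratio was lower in all 3 interferon-gamma libraries, with a difference in mean log2 ratio of -0.51. The ratio of Parp14 to Parp9 was 0.792, 0.757 and 0.731 with interferon-gamma, against 0.261, 0.341 and 0.343 in controls. It was higher in all 3 interferon-gamma libraries, by 1.23 on the log2 scale with a pseudocount of 0.1 TPM. For these ratios and that of Zc3hav1 to Parp12 the two-sided exact permutation p was 0.1 each, also adjusted over the 3, which is the smallest p that 3 against 3 allows, so none can pass the threshold. The Dtx3l and Parp9 genes share 558 bases on opposite strands. The sources used here do not say whether counting used strand, so reads of that stretch cannot be told apart between them.

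**Figure D2:**
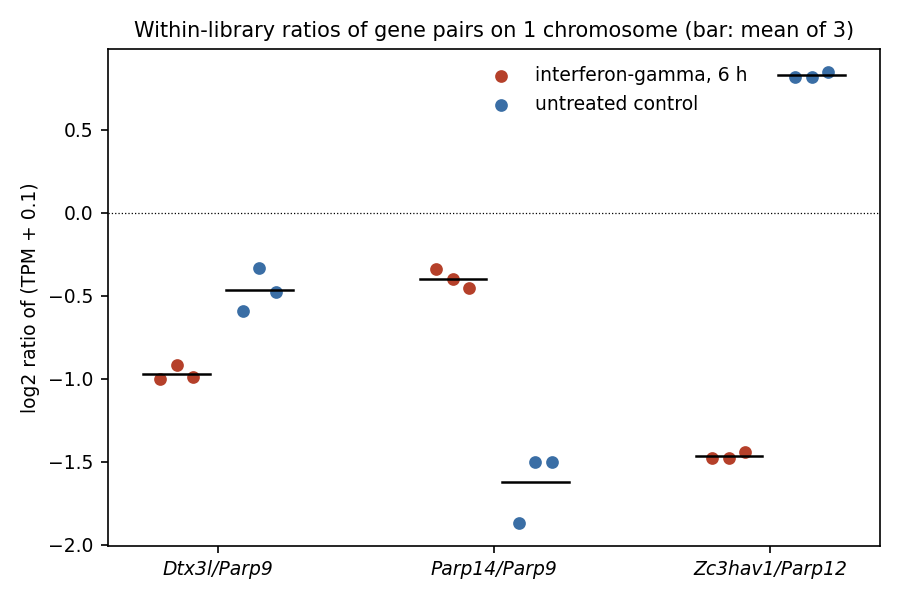
Log2 ratio of (TPM + 0.1) of 2 genes within each library, interferon-gamma in red left of control in blue, with a bar at the mean of 3. Dtx3l over Parp9 and Zc3hav1 over Parp12 lie lower with interferon-gamma, by 0.51 and 2.30 on this scale, and Parp14 over Parp9 lies higher by 1.23.

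The genes beside the 3 on chromosome 16 showed smaller changes. Hspbap1, 3.43 kb from Parp14, fell (log2 -0.59, edgeR adjusted p = 4.12e-06), with a mean of 8.08 TPM with interferon-gamma and 13.3 TPM in controls. On the other side, Kpna1, a nuclear import gene 10.7 kb from Parp9, averaged 32.8 TPM with interferon-gamma and 35.5 TPM in controls (log2 0.00, adjusted p = 0.99). Further out, Fam162a rose (log2 0.47, adjusted p = 6.95e-06), while Pdia5 (-0.09, adjusted p = 0.334) and Wdr5b (0.07, adjusted p = 0.769) did not pass the threshold. Slc49a4 passed at -0.22 (adjusted p = 0.0473), a call lost by DESeq2 (adjusted p = 0.108), with the replicate number as a block (0.126) and without control replicate 2 (0.0846), control replicate 4 (0.146), interferon-gamma replicate 1 (0.154) or interferon-gamma replicate 4 (0.0625). From the start of Parp14 to the end of Parp9 the stretch spans 141 kb.

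Around all 8 genes, the 3 nearest coding genes with a row on each side made 36 neighbours outside the set. Of these, 10 rose, 10 fell, 11 did not pass the threshold and 5 were too low to test, and none reached 2-fold upward. Over all tested genes the shares were 19.9% risen and 18.1% fallen, and nothing particular to the neighbours is read from these counts. The neighbour with the highest log2 fold change was Atxn7l1 near Nampt (0.92, edgeR adjusted p = 7.53e-10), at 34.5 TPM with interferon-gamma and 19.8 TPM in controls. Beside Parp10, Plec, the cytolinker plectin, fell (-0.52, adjusted p = 2.92e-07) and Grina rose (0.39, adjusted p = 7.17e-06). Coq8a near Parp1 had the lowest value (-1.94, adjusted p = 0.00125), at a mean of 0.13 TPM with interferon-gamma and 0.49 TPM in controls.

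**Figure D3:**
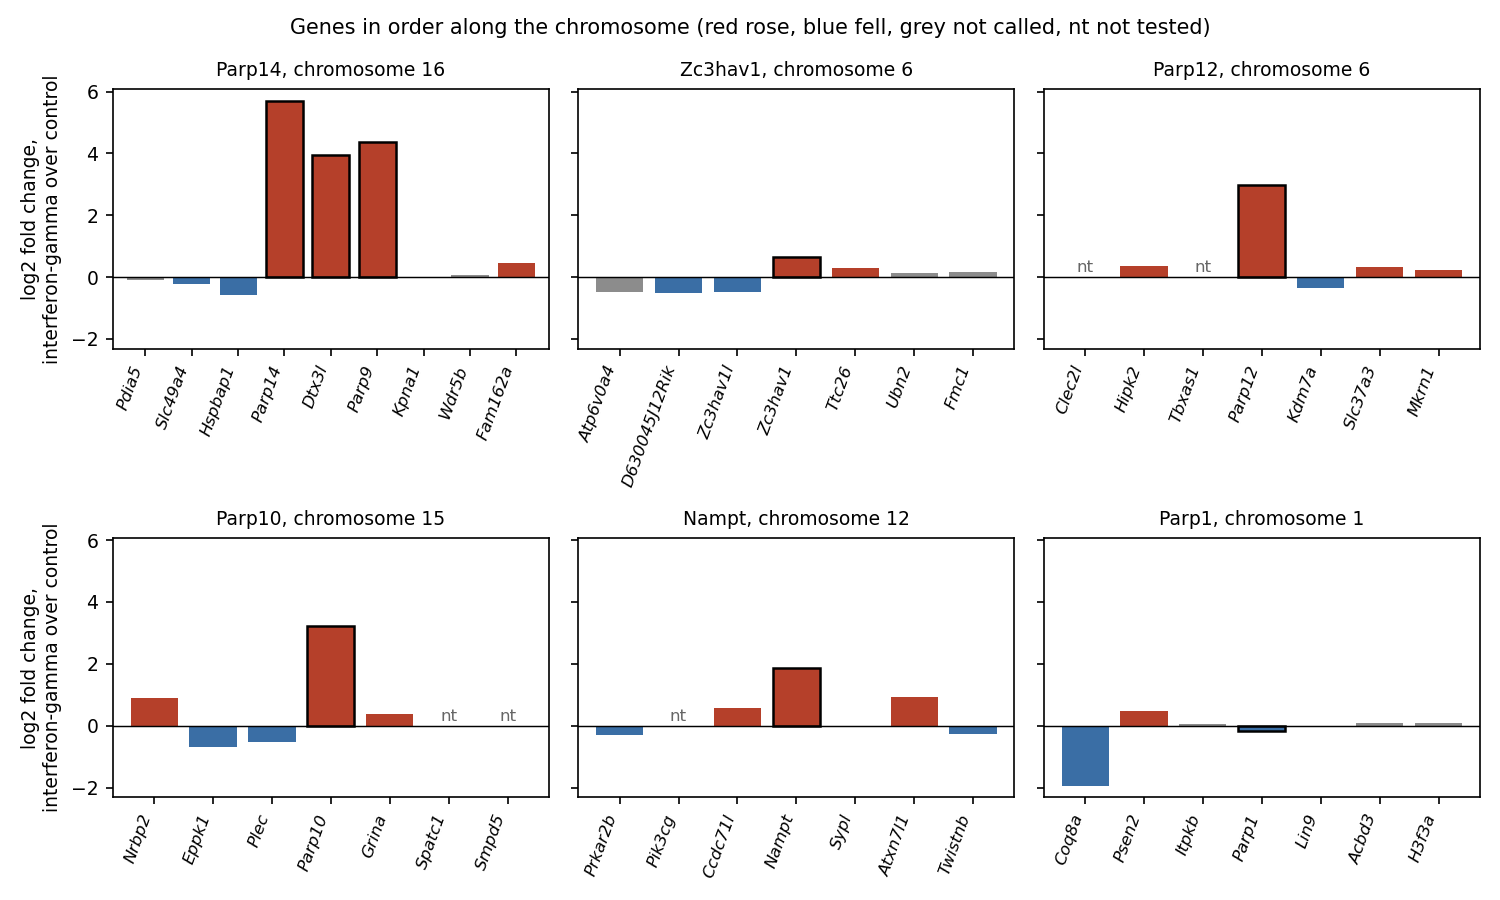
Log2 fold change, interferon-gamma over control, of genes in their order along each chromosome around the 8 genes (outlined bars), red for rose, blue for fell, grey for not called and nt for not tested. The outlined bars of chromosome 16 reach 5.70, 3.95 and 4.38, and no neighbour outside the set exceeds 0.92.

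Parp10 and Parp12 were the most abundant of the 8 with interferon-gamma. Parp10 (NCBI Gene 671535, chromosome 15, 76232995 to 76243440, minus strand in GENCODE), a single-unit ADP-ribosyltransferase with RNA-recognition and ubiquitin-interaction motifs, was at 172, 170 and 149 TPM with interferon-gamma, against 17, 19.8 and 20.6 TPM in controls. Interferon-gamma replicate 4 was the lowest of its group and still far above each control. Parp10 rose 9.28-fold (95% interval 8.44 to 10.2), by 3.21 ± 0.079 on the log2 scale (edgeR adjusted p = 4.43e-20). The deposited tables place this gene on the plus strand, and their strand differs from GENCODE for 11.8% of 14201 genes.

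Parp12 (NCBI Gene 243771, chromosome 6, 39086412 to 39118349, minus strand), a CCCH zinc-finger relative of Zc3hav1 with catalytic activity, was at 171, 164 and 160 TPM with interferon-gamma, against 22.3, 23.7 and 22.4 TPM in controls. The 3 libraries of each group lay close together and far from the other group. Parp12 rose 7.82-fold (95% interval 7.24 to 8.45), by 2.97 ± 0.029 on the log2 scale (edgeR adjusted p = 6.53e-21).

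Zc3hav1 (NCBI Gene 78781, chromosome 6, 38305286 to 38355352, minus strand) encodes ZAP, or PARP13, which lacks catalytic activity and binds CG-rich viral RNA for decay. It was at 61.0, 58.7 and 59.0 TPM with interferon-gamma, against 39.2, 41.9 and 40.5 TPM in controls. Its counts in interferon-gamma replicates 2 and 4 were not whole and were rounded before the test. The groups did not overlap, but the gap was small beside that of Parp12, 731 kb away on the same chromosome. Zc3hav1 rose 1.59-fold (95% interval 1.48 to 1.70), by 0.66 ± 0.017 on the log2 scale (edgeR adjusted p = 3.9e-10). The TPM ratio of Zc3hav1 to Parp12 was 0.357, 0.357 and 0.369 with interferon-gamma, against 1.76, 1.76 and 1.81 in controls. Zc3hav1 was thus the more abundant of the pair in every control and the less abundant in every interferon-gamma library. Its adjacent relative Zc3hav1l, 6.03 kb away, fell (log2 -0.49, adjusted p = 0.000626).

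Among 14 cofactors of ZAP and RNA decay partners, all tested, 6 rose, 1 fell and 7 did not pass the threshold. Of all tested genes, 19.9% rose and 18.1% fell. The median log2 fold change of the list was 0.08, against 0.01 over all genes. Trim25, the ubiquitin ligase that ZAP needs for its antiviral effect, was at 62.1, 57.2 and 59.97 TPM with interferon-gamma, against 21.6, 26.4 and 26.8 TPM in controls. Its log2 fold change was 1.37 (edgeR adjusted p = 2.74e-14), with no overlap between groups. Smaller rises were those of the ribonuclease gene N4bp1 (0.55, adjusted p = 1.44e-08), the decapping enzyme gene Dcp2 (0.65, adjusted p = 4e-08) and the exonuclease gene Xrn1 (0.41, adjusted p = 1.77e-05). The 1 fall, Exosc7 of the RNA exosome, was named after its values were seen (-0.18, adjusted p = 0.0367). The count of falls was 0 by DESeq2, with the replicate number as a block, and without control replicate 2 or any 1 of the interferon-gamma replicates, 2 without control replicate 3, and 3 with upper-quartile factors or on total counts.

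Parp1 (NCBI Gene 11545, chromosome 1, 180568891 to 180600999, plus strand), the chain-forming enzyme of the DNA damage response, moved the other way. It was at 98.9, 91.2 and 91.9 TPM with interferon-gamma, against 109, 118 and 113 TPM in controls. Every interferon-gamma library lay below every control, but the step was small beside the rises. On TMM-scaled counts Parp1 was 1.12-fold lower, with a log2 fold change of -0.16 ± 0.021 and a limma-voom 95% interval of -0.26 to -0.06 (edgeR adjusted p = 0.0134). The call was lost without interferon-gamma replicate 2 (log2 -0.15, adjusted p = 0.0642). None of 8 DNA-damage partners of Parp1 was called by edgeR with TMM factors and filterByExpr, by DESeq2 or by limma-voom. At an unadjusted edgeR p under 0.05, Timeless (log2 0.15) and Polb (0.15) were higher and Lig3 (-0.13) and Chd1l (-0.14) lower, with adjusted p of 0.0509, 0.106, 0.071 and 0.104. Lig3 and Chd1l were called as falls with upper-quartile factors (adjusted p = 0.0119 and 0.0254) and on total counts (0.0077 and 0.0155). Timeless was called as a rise with no filter (adjusted p = 0.0392) and with the 1 CPM filter (0.0493). Without control replicate 2 the calls were 1 rise and 1 fall, and without interferon-gamma replicate 4 there was 1 rise.

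Nampt (NCBI Gene 59027, chromosome 12, 32820335 to 32853369, plus strand) was at 93.8, 87.1 and 96.1 TPM with interferon-gamma, against 25.2, 31.2 and 26.9 TPM in controls. All 3 interferon-gamma libraries stood well above the highest control, replicate 3. Nampt rose 3.6-fold (95% interval 3.30 to 3.94), by 1.85 ± 0.08 on the log2 scale (edgeR adjusted p = 3.18e-16).

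Of 18 other genes of NAD synthesis, 12 had a row and 11 were tested, of which 2 rose, 1 fell and 8 did not pass the threshold (median log2 fold change 0.03). The shares over all tested genes were 19.9% risen and 18.1% fallen, so for so few genes these counts are near the background. Nmrk2, Haao, Kynu, Kmo, Tdo2 and Ido1 had no row and were not analysed here. Nmnat2, a cytosolic enzyme that completes NAD from the product of Nampt, fell (log2 -0.77, edgeR adjusted p = 1.37e-06). Nmnat2 was at 3.74, 3.78 and 4.29 TPM with interferon-gamma, against 7.18, 6.74 and 7.82 TPM in controls. Nmnat1 (0.03, edgeR adjusted p = 0.845) and Nmnat3 (0.07, 0.816), named after their values were seen, did not pass the threshold. Nmnat1 averaged 7.44 TPM with interferon-gamma and 7.89 TPM in controls. Nadk2, the mitochondrial NAD kinase, was at 31.4, 29.7 and 28.5 TPM with interferon-gamma, against 22.2, 22.2 and 22.1 TPM in controls, a rise of 0.56 on the log2 scale (adjusted p = 1.49e-07). The carrier gene Slc25a51, which brings NAD into mitochondria, had a log2 fold change of -0.13 (adjusted p = 0.069), called as a fall with upper-quartile factors (0.0122) and with total-count scaling (0.00684).

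Ido2, a tryptophan-degrading enzyme gene of the route from tryptophan toward NAD, rose against very few reads in controls. Its counts were 152, 115 and 107 with interferon-gamma, against 5, 1 and 0 in controls. The sums were 374 and 6 counts, so the size of the rise is loosely set. The fitted log2 fold change was 5.96 (edgeR adjusted p = 7.37e-12) and lay between 5.39 and 7.72 over the alternatives tried.

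Among 12 other NAD consumers and genes of nicotinamide clearance, 11 were tested. Of these, 3 rose, 2 fell and 6 did not pass the threshold (median log2 fold change 0.12). Over all tested genes 19.9% rose and 18.1% fell, so for so few genes these counts are near the background. Cd38 had no row and was not analysed here. Bst1, an NAD-splitting ectoenzyme of the Cd38 family, had 18, 36 and 29 counts with interferon-gamma, against 2, 3 and 2 in controls (log2 3.59, edgeR adjusted p = 7.82e-07). Nnmt, which methylates nicotinamide and so removes the substrate of Nampt, had 49, 46 and 50 counts with interferon-gamma, against 4, 5 and 6 in controls (log2 3.33, adjusted p = 3.29e-09). Both stayed low in abundance beside Nampt, Nnmt at 5.60, 4.70 and 6.02 TPM with interferon-gamma. Aox1, an oxidase of methylated nicotinamide, had 12, 19 and 22 counts with interferon-gamma, against 41, 40 and 43 in controls (log2 -1.13, adjusted p = 0.000607). The deacetylase gene Sirt1 passed at -0.21 (adjusted p = 0.0265), a call lost by DESeq2 (adjusted p = 0.0576), with the replicate number as a block (0.119), and without control replicate 3 (0.128), interferon-gamma replicate 2 (0.0886) or interferon-gamma replicate 4 (0.0528).

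Of 12 gene names listed for ADP-ribose removal, 11 had a row and 9 were tested. Of the 9, 1 rose and 8 did not pass the threshold (median log2 fold change 0.13), where 19.9% of all tested genes rose and 18.1% fell. None fell (0 at an unadjusted edgeR p under 0.05, 0 by DESeq2 and 0 by limma-voom). The chain-cutting glycohydrolase gene Parg was at 15.2, 14.99 and 15.3 TPM with interferon-gamma, against 15.4, 17.7 and 16.8 TPM in controls (log2 -0.01, adjusted p = 0.871; named after its values were seen). Adprm, which cleaves free ADP-ribose, rose by 0.40 (adjusted p = 0.0111), to 12.5, 11.2 and 11.3 TPM with interferon-gamma, against 8.05, 11.3 and 8.76 TPM in controls. On the TPM scale its groups overlapped. The call of Adprm was lost without control replicate 2 (0.32, adjusted p = 0.0626), where Adprh, Oard1 and Nudt9 were called as rises instead, and without control replicate 4 (0.36, adjusted p = 0.0542), which left 0 rises. Without interferon-gamma replicate 4 there were 2 rises.

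**Figure D4:**
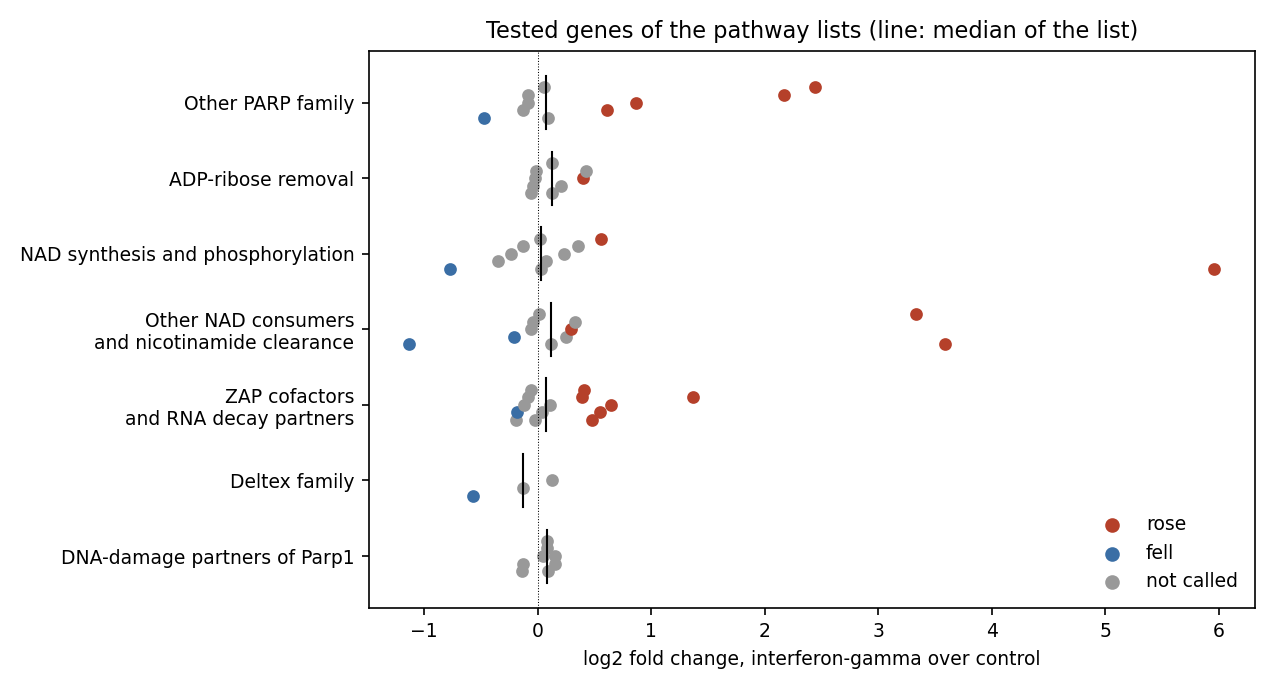
Log2 fold change, interferon-gamma over control, of each tested gene of the pathway lists, red for rose, blue for fell and grey for not called, with a vertical line at each list's median. The medians lie between -0.13 and 0.13, and the points far to the right are Parp3 and Parp11, Ido2, Bst1 and Nnmt, and Trim25.

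Across the PARP family, 16 genes counting 6 of the 8 above, 9 rose, 2 fell and 5 did not pass the threshold. Of the 10 other family genes, 4 rose and 1 fell, with a median log2 fold change of 0.08. Over all tested genes, 19.9% rose and 18.1% fell. Parp3, a DNA-repair relative of Parp1, was at 56.6, 54.4 and 53.1 TPM with interferon-gamma, against 10.5, 10.5 and 11.5 TPM in controls. With a log2 fold change of 2.44 (edgeR adjusted p = 5.02e-18) it moved opposite to Parp1. Parp11, a single-unit enzyme with a WWE domain, was at 21.4, 19.7 and 20.8 TPM with interferon-gamma, against 4.49, 5.29 and 5.51 TPM in controls (log2 2.17, adjusted p = 1.03e-15). Parp4, the vault PARP, rose by 0.87 (adjusted p = 4.11e-09) and Parp8 by 0.61 (adjusted p = 3.72e-07), both with no overlap between groups. Parp16, the family member of the endoplasmic reticulum, fell to 6.38, 5.87 and 5.16 TPM with interferon-gamma, against 8.52, 7.88 and 9.63 TPM in controls (log2 -0.47, adjusted p = 0.00166).

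The tankyrase genes Tnks (-0.08, limma-voom 95% interval -0.24 to 0.08) and Tnks2 (-0.08, -0.20 to 0.03) did not pass the threshold, nor did Parp2 (0.09, -0.02 to 0.21), Parp6 (0.06, -0.14 to 0.26, and -0.01 on total counts) and Tiparp (-0.13, -0.25 to -0.01). Tiparp was called as a fall without control replicate 2 (-0.17, edgeR adjusted p = 0.033) or interferon-gamma replicate 4 (-0.17, adjusted p = 0.0235). Both Tiparp and Tnks2 were called as falls with upper-quartile factors (adjusted p = 0.0139 and 0.0491) and with total-count scaling (0.00934 and 0.03). Parp9, Parp10, Parp12, Parp14, Parp3 and Parp11 therefore carried the rises above 4-fold. Both tankyrases, Parp2, Parp6, Tiparp and Parp1 had estimates within 1.12-fold of control on TMM-scaled counts.

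**Figure D5:**
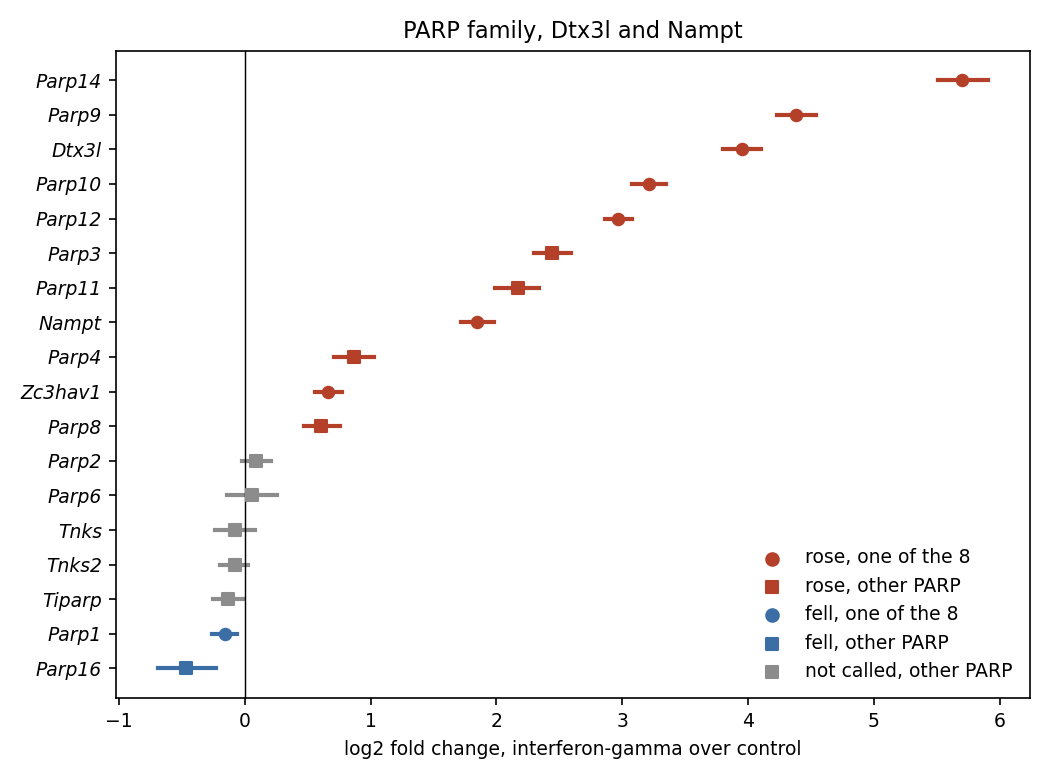
Log2 fold change, interferon-gamma over control (edgeR), of the PARP family, Dtx3l and Nampt, with limma-voom 95% intervals as lines, circles for the 8 genes and squares for the other PARP genes. The values run from 5.70 for Parp14 to -0.47 for Parp16.

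The make-up of the family's transcripts shifted with these changes. Summed over the 16 genes, the level was 985, 928 and 919 TPM with interferon-gamma, against 384, 423 and 420 TPM in controls. Parp1 made up 10.0%, 9.83% and 10.0% of that sum with interferon-gamma, against 28.4%, 27.8% and 26.9% in controls. Parp14 made up 9.85%, 9.25% and 9.66% with interferon-gamma, against 0.391%, 0.456% and 0.512% in controls. Parp10 went the same way, with 17.5%, 18.3% and 16.3% of the sum with interferon-gamma, against 4.43%, 4.67% and 4.90% in controls. The shares of Zc3hav1 were 6.19%, 6.33% and 6.42% with interferon-gamma, against 10.2%, 9.89% and 9.66% in controls, so its share was lower although its level was higher.

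The order of the 8 genes by level changed as well. With interferon-gamma, the mean levels were 165 TPM for Parp12, 164 for Parp10, 119 for Parp9, 94.0 for Parp1, 92.3 for Nampt, 90.6 for Parp14, 60.7 for Dtx3l and 59.6 for Zc3hav1. The ranges over libraries overlapped between Parp12 and Parp10, among Parp1, Nampt and Parp14, and between Dtx3l and Zc3hav1. In controls, the means were 113 TPM for Parp1, 40.5 for Zc3hav1, 27.7 for Nampt, 22.8 for Parp12, 19.1 for Parp10, 5.89 for Parp9, 4.25 for Dtx3l and 1.86 for Parp14, and no neighbours in that order overlapped. Parp1, the most abundant of the 8 in every control, was thus below Parp9, Parp10 and Parp12 in every interferon-gamma library.

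The genes outside the set whose log2 CPM over the 6 libraries, each centred on its control mean, lay nearest to Parp9, Parp10, Parp12 and Dtx3l were taken from 10966 genes with a mean of at least 1 CPM. The nearest to Parp9 was Tap2, a peptide transporter subunit (root mean square difference 0.10 on the log2 scale, log2 fold change 4.36). Sp100, a nuclear body gene, was nearest to Parp10 (0.081, log2 fold change 3.20). Irf9, a transcription factor of the interferon response, was nearest to Parp12 (0.06, log2 fold change 2.98), and Serpinb1a was nearest to Dtx3l (0.10, log2 fold change 3.96). The 2 groups of 3 libraries dominate this measure, so a near match says mainly that the sizes of 2 changes are alike.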

How the data were processed

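Per the labels' protocols, column-purified RNA of 6 IEC 4.1 samples went to DNBSEQ libraries, and the treatment labels gave the groups. The submitters' processing notes name HISAT and HISAT2 and the builds mm10 and GRCm38.p6 without roles. How reads were counted, and whether by strand, is in no source used here. Each deposited table held 14701 genes with estimated counts (6.8% to 7.37% of a library's values were fractional) and TPM, which the authors scaled for gene length and library, per the file headers. FPKM values, which the authors deposited beside them, were not used.

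Rounded counts went to edgeR 4.0.16 (R 4.3.3): filterByExpr (minimum count 10, 3278 genes left out), TMM factors (0.9717 to 0.9816 with interferon-gamma, 1.016 to 1.033 in controls), glmQLFit with robust=TRUE and glmQLFTest, adjusted by Benjamini-Hochberg over 11423 genes, threshold 0.05. Standard errors come from the replicates' log2 CPM (prior count 2) and 95% intervals from limma-voom (limma 3.58.1). Levels are deposited TPM, which compare genes per length; TPM and TMM-scaled values of one gene can differ. Ratios used log2(TPM + 0.1) and an exact permutation test. The scripts were tested on simulated data. Gene positions are RefSeq on GRCm38.p6, with strand from GENCODE M21.

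Genes named are the 8, all other PARP genes, the 4 tested genes with the lowest p in each other list, 3 coding neighbours a side, and 2 most alike genes for each at least 4-fold change, of which some are not reported here. The 8 genes and the lists were chosen with earlier results of these data known. Alternatives were DESeq2 1.42.0, limma-voom, 3 other scalings (median-of-ratios, upper-quartile, total counts), robust=FALSE, no filter, a filter of 1 CPM in 3 samples, the stricter threshold 0.01, the replicate number as a block, each library left out, and for ratios CPM and a pseudocount of 1. Tables were made with Python 3.11.15 (pandas 2.3.3, numpy 2.4.6, scipy 1.17.1) and figures with matplotlib 3.10.9. Depth was even over libraries.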

Additional observations from a re-analysis of the deposited data

How the results depend on the processing

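Over 16 alternatives, the 8 genes kept their direction in all 128 values, and 126 stayed on the same side of the threshold. The exceptions were both of Parp1, which at a threshold of 0.01 missed it at -0.16, leaving 0 falls, and without interferon-gamma replicate 2 at -0.15. With single libraries left out, Parp1 lay between -0.18 and -0.15 and the number of falls between 0 and 1, while over all alternatives Parp1 lay between -0.23 (total counts) and -0.15, with -0.21 under upper-quartile factors. The other ranges over all alternatives were 5.59 to 5.79 for Parp14, 4.31 to 4.41 for Parp9, 3.88 to 3.99 for Dtx3l, 3.14 to 3.27 for Parp10, 2.90 to 2.98 for Parp12, 1.78 to 1.93 for Nampt and 0.59 to 0.68 for Zc3hav1. With a pseudocount of 1, the log2 ratio of Parp14 to Parp9 differed by 0.88 and that of Zc3hav1 to Parp12 by -2.26.

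Scaling moved the balance of small calls. The median over all genes shifted to -0.0625 on total counts and -0.0442 with upper-quartile factors. Falls over all genes numbered 3124 on total counts (2069 in the main test), with 1644 rises (2278), and 2823 with upper-quartile factors, with 1775 rises. Falls over all the lists numbered 16 under each of these scalings (8). These totals include a list of 6 treatment-check genes, Irf1 among them, of which 4 rose and 2 fell in the main test. Among the falls were 3 other PARP genes (1), with Tiparp at -0.18 and Tnks2 at -0.14 under upper-quartile factors. Of 1230 values of 77 other named genes, 1138 kept direction and side, 45 lost a call, 29 gained one and 18 changed sign, all of the last near 0. These were Parp6 (-0.01), Itpkb (-0.02) and Wdr5b (-0.01) on total counts, and, with single libraries left out, Itpkb (-0.01 to 0.13), Wdr5b (0.00 to 0.11), Lin9 (-0.06 to 0.03), Kpna1 (-0.05 to 0.03) and Sypl (-0.07 to 0.04).

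Only replicate numbers 2 and 4 occur in both groups, with deviations correlated at 0.128 and -0.0899, so the numbers were not taken as pairs. With the replicate number as a block, the 7 rises and the fall of Parp1 (-0.16, adjusted p = 0.0424) held, all genes had 2133 rises and 1793 falls, and Dtx3 (0.00), Itpkb (0.00), Lin9 (0.07), Kpna1 (0.06) and Sypl (0.08) changed sign. Where these calls and values moved, the cause was not tested. Low counts limit Ido2, Bst1, Nnmt and Aox1, and 3 libraries per group limit the ratios.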

Other observations

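Deposited count divided by deposited TPM, scaled in each library on 863 genes with a single transcript, gives a relative mean transcript length, a measure added after the data were examined. Set against Parp1, it was 0.853, 0.858 and 0.851 for Parp9 with interferon-gamma, against 0.875, 0.908 and 0.897 in controls. For Parp14 it was 2.09 in each interferon-gamma library, against 2.11, 2.13 and 2.10 in controls. Parp10 had 0.90 in each interferon-gamma library, against 0.899, 0.897 and 0.897 in controls, and Zc3hav1, with 6 annotated transcripts, had 1.39, 1.38 and 1.40 with interferon-gamma, against 1.38, 1.40 and 1.39 in controls. The groups did not overlap for Parp9, Parp14 and Parp10, and they overlapped for Zc3hav1. The share of all genes without overlap on this measure is not given here, and the differences were not tested.

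Of 19 genes in the tables with the deposited term for NAD+ ADP-ribosyltransferase activity, 6 are among the 8 genes, 11 stand in the lists, and Art3 and Trpt1 are outside both.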
